A study of Arabidopsis thaliana with 12 samples.

Results

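The nuclear genes for the photosystem subunits, the light-harvesting antenna and the Rubisco small subunit are described here in Arabidopsis thaliana seedlings held at low water potential. The members are 44 locus identifiers taken by name from the annotation, not by their values, out of 33602 genes in the deposited tables. They fall into 4 photosystem I antenna genes (LHCA1 to LHCA4), 14 photosystem II antenna genes (LHCB1 to LHCB6), 12 photosystem I subunits, 10 photosystem II subunits and 4 Rubisco small subunit genes. All 44 were among the 22924 genes tested, because none had low counts in any group.

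Poly-A RNA of whole Col-0 seedlings was sequenced in 12 stranded libraries, 3 from each of 4 groups. HIN1 stress and HIN1 control are a stable line carrying 35S:HIN1 (in the pEG100 vector; HIN1 is AT3G11290), and WT stress and WT control are untransformed Col-0. After 7 days of growth in continuous light on Murashige-Skoog agar without sugar, seedlings of the stress groups were moved to agar infused with PEG-8000 at -0.7 MPa and those of the control groups to fresh agar at -0.25 MPa, for 96 h. The 3 libraries of a group are separate experiments. The HIN1 groups are 1 transformed line, whose 35S promoter is active in most tissues, and the WT libraries also serve a series on another mutant.

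In the chloroplast, photosystem II splits water and photosystem I reduces ferredoxin, and each core is fed by chlorophyll-binding antenna proteins that are made in the cytosol and imported. Rubisco fixes carbon dioxide with large subunits encoded in the chloroplast and small subunits encoded in the nucleus by the RBCS genes. Transcripts of these nuclear families are among the most abundant of a green seedling, depend on light and on chloroplast state, and are known to decline in leaves under strong drought.

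The upstream sequences of 5 members, chosen by their values, are given first. LHCB1.3 had the highest level per length and LHCB1.4 the lowest log2 fold change in WT stress against WT control. LHCB2.1 and LHCB2.3 had the lowest p in the test of a different stress response between genotypes, in which edgeR called no member. RBCS2B is the Rubisco member that was called in the HIN1 line and not in WT. Its log2 fold changes were close, -0.50 (adjusted p = 0.0432 by edgeR) in the HIN1 line and -0.43 (adjusted p = 0.0691) in WT. Each sequence is the 200 bases before the annotated gene start, 5′ to 3′ on the strand of the gene, from the RefSeq copy of assembly TAIR10.1. Capitals mark the letters of 6 motifs searched on both strands and described below.
LHCB1.3, chr1:10477685-10477884, plus strand: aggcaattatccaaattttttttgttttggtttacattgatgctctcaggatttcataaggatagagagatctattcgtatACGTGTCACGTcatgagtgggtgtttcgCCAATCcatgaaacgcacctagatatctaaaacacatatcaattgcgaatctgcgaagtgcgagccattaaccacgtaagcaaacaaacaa
LHCB1.4, chr2:14524407-14524606, plus strand: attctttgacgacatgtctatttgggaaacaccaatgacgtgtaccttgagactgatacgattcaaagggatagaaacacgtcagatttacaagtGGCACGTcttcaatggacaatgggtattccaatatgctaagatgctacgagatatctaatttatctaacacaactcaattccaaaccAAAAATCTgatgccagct
LHCB2.1, chr2:1824481-1824680, minus strand: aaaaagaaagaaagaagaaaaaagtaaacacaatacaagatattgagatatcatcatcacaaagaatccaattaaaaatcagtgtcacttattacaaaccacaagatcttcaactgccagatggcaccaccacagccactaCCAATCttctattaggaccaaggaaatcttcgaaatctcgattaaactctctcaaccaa
LHCB2.3, chr3:10255706-10255905, plus strand: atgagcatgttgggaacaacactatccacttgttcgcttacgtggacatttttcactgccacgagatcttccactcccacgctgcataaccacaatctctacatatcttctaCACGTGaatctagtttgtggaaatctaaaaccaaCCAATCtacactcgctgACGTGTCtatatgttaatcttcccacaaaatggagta
RBCS2B, chr5:15382072-15382271, minus strand: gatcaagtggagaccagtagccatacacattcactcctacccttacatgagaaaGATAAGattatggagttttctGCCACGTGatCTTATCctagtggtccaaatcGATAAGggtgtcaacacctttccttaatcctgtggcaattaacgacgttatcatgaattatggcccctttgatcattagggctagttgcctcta

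The searched letters were CCAATC (a motif reported upstream of genes that respond to the GLK transcription factors in Arabidopsis), ACGTGNC (the abscisic acid response element, ABRE), CACGTG (the G-box), GATAAG (the I-box), AAAAATCT (the CCA1-binding site) and AAAATATCT (the evening element). G-box and ABRE letters can share bases, as they do upstream of RBCS2B. CCAATC stood in the windows of 10 of 18 antenna genes: LHCA1, LHCA3, LHCA4, LHCB1.3, LHCB1.5, LHCB2.1, LHCB2.2, LHCB2.3, LHCB4.1 and LHCB4.2. It stood in no window of the 12 photosystem I, 10 photosystem II or 4 Rubisco members. Of all 27443 protein-coding windows of the same length, 8.43% held it. The ABRE letters were present in 13 of 44 members, against 7.5% of all windows, and the G-box in 9 of 44, against 5.64%. The I-box was found in 9 of 44 members and 9.97% of all windows, the CCA1-binding site in 5 of 44 and 5.22%, and the evening element in 0 of 44 and 1.92%. LHCB1.4 lacks CCAATC in this window, while its neighbour LHCB1.5 holds it, and both were called lower in WT stress against WT control. The windows of some members run into another annotated gene, among them those of LHCA1 and LHCB4.2, which hold CCAATC. A match is a run of letters in a window and was not tested as a binding site.

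Several members lie side by side. LHCB1.2, LHCB1.1 and LHCB1.3 form a cluster on chromosome 1, LHCB1.5 and LHCB1.4 are divergent on chromosome 2 with 1038 bases between them, and RBCS3B, RBCS2B and RBCS1B follow each other on chromosome 5. The coding sequences of the 5 LHCB1 genes are 86.8% to 96.4% identical and those of RBCS1B and RBCS2B 97.3%. Reads that mapped to several sites made up 11.0% to 14.8% of the reads of RBCS1B and 9.1% to 12.3% of those of RBCS3B, so their values are uncertain, and at most 3.06% in the other 42 members. In the annotation 16 members overlap another gene, among them LHCB1.5, which lies wholly within an antisense long non-coding RNA, PSAG (61.4% of its length) and PSAH1 (49.0%). Whether counting used the strand is not given in the sources used here, so for these the reads of both partners may be mixed.

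Libraries held 58.0 to 68.56 M gene reads. HIN1 had 316 to 390 CPM (counts scaled to a common library total with TMM factors) in HIN1 stress, 249.6 to 297 CPM in HIN1 control, 22.8 to 24.5 CPM in WT stress and 21.6 to 24.5 CPM in WT control, so the 6 libraries labelled HIN1 all matched their label. The members took 9.08% to 9.42% of gene reads in HIN1 stress, 7.82% to 9.54% in HIN1 control, 8.56% to 9.07% in WT stress and 9.55% to 11.17% in WT control. Library 3 of each group stood apart in read composition: chloroplast genes took 0.408% to 0.75% of gene reads in these 4 libraries and 0.141% to 0.263% in the other libraries, and reads at several sites 1.84% to 2.6% and 1.33% to 1.58%. The part of this in the member results was not tested beyond fits on libraries 1 and 2 only and a fit with a term for the library number (replicate block). The control libraries spread most: HIN1 control library 2 had the lowest summed antenna level and WT control library 1 the highest. In whole seedlings, fewer green cells and less RNA per green cell cannot be told apart. The summed level of 14 root markers, most of it from PYK10, was 3154 to 3183 CPM in HIN1 stress, 3576 to 3845 CPM in HIN1 control, 3307 to 3412 CPM in WT stress and 3703 to 4409 CPM in WT control. The sum does not stand for the list. By log2 fold change, 10 of the 14 were positive in WT stress against WT control (median 0.25). In HIN1 stress against HIN1 control 11 were negative (median -0.17). In HIN1 control against WT control 11 were positive (median 0.32), and in HIN1 stress against WT stress 8 were negative (median -0.08). None of the 14 markers was at 0.

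**Figure D1:**
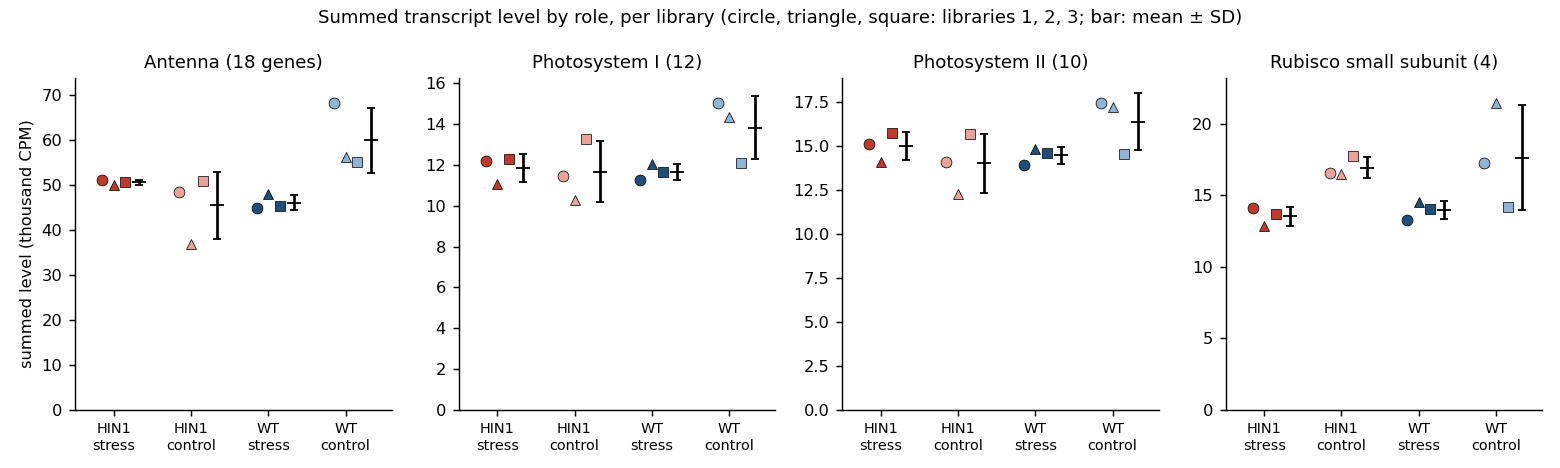
Summed level (CPM, in units marked on the axis) of each role class in each library, with HIN1 stress, HIN1 control, WT stress and WT control from left to right and bars for the mean ± SD of 3 libraries. The antenna sum is 50528 ± 623 CPM in HIN1 stress and 45429 ± 7498 CPM in HIN1 control, and 46061 ± 1708 CPM in WT stress and 59853 ± 7244 CPM in WT control.

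Levels between genes were compared as RPKM, reads scaled by transcript length and library total, averaged over the 12 libraries. LHCB1.3, a gene of the major trimeric antenna, was highest at 9500.4 RPKM, followed by RBCS1A at 6726 RPKM, LHCB1.5 at 4770.3 RPKM and RBCS3B at 4331 RPKM. PSBR led the photosystem II subunits at 3291 RPKM, LHCA4 the photosystem I antenna at 2855 RPKM and PSAL the photosystem I subunits at 2014 RPKM. The lowest member was LHCB4.3, a minor antenna gene, at 21.9 RPKM, and the next lowest, PSAE2, was at 509 RPKM.

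In WT, part of the antenna, photosystem and Rubisco set fell at low water potential. Of the 44 members, 18 fell and 0 rose in WT stress against WT control in the quasi-likelihood test of edgeR, at a Benjamini-Hochberg adjusted p under 0.05. Of all genes tested, 31.6% were called, 16.7% lower and 14.9% higher. DESeq2 called 21 members lower, against 16.7% of the genes it tested. The fallen members were 10 of 18 antenna genes, 4 of 12 photosystem I subunits, 2 of 10 photosystem II subunits and 2 of 4 Rubisco small subunit genes. The log2 fold change was negative in 42 members, with a median of -0.25 over the 44 members, -0.38 over the antenna genes and -0.0035 over all genes tested. In 24 members every WT stress library was below every WT control library, which held for 21.5% of all genes tested. Summed antenna level was 44851, 48015 and 45317 CPM in the WT stress libraries and 68193, 56228 and 55137 CPM in the WT control libraries. The 2 groups did not overlap, and the difference of their means was -23.0%. By summed RPKM the difference was -19.3%, also without overlap. The number that fell depended on single libraries: it was 7 without WT control library 1, 10 without WT control library 2, and 8 without WT stress library 1 or WT stress library 3. With libraries 1 and 2 of each group only, 17 fell. LHCA1, LHCB1.1, LHCB1.4, LHCB1.5, LHCB5, PSBQ1 and RBCS1B, 7 in all, fell whichever library was left out, and no photosystem I subunit did. LHCB1.2 and PSAO missed the threshold most often, each in 9 of the 12 fits with a library left out, and PSAE2 in 6.

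**Figure D2:**
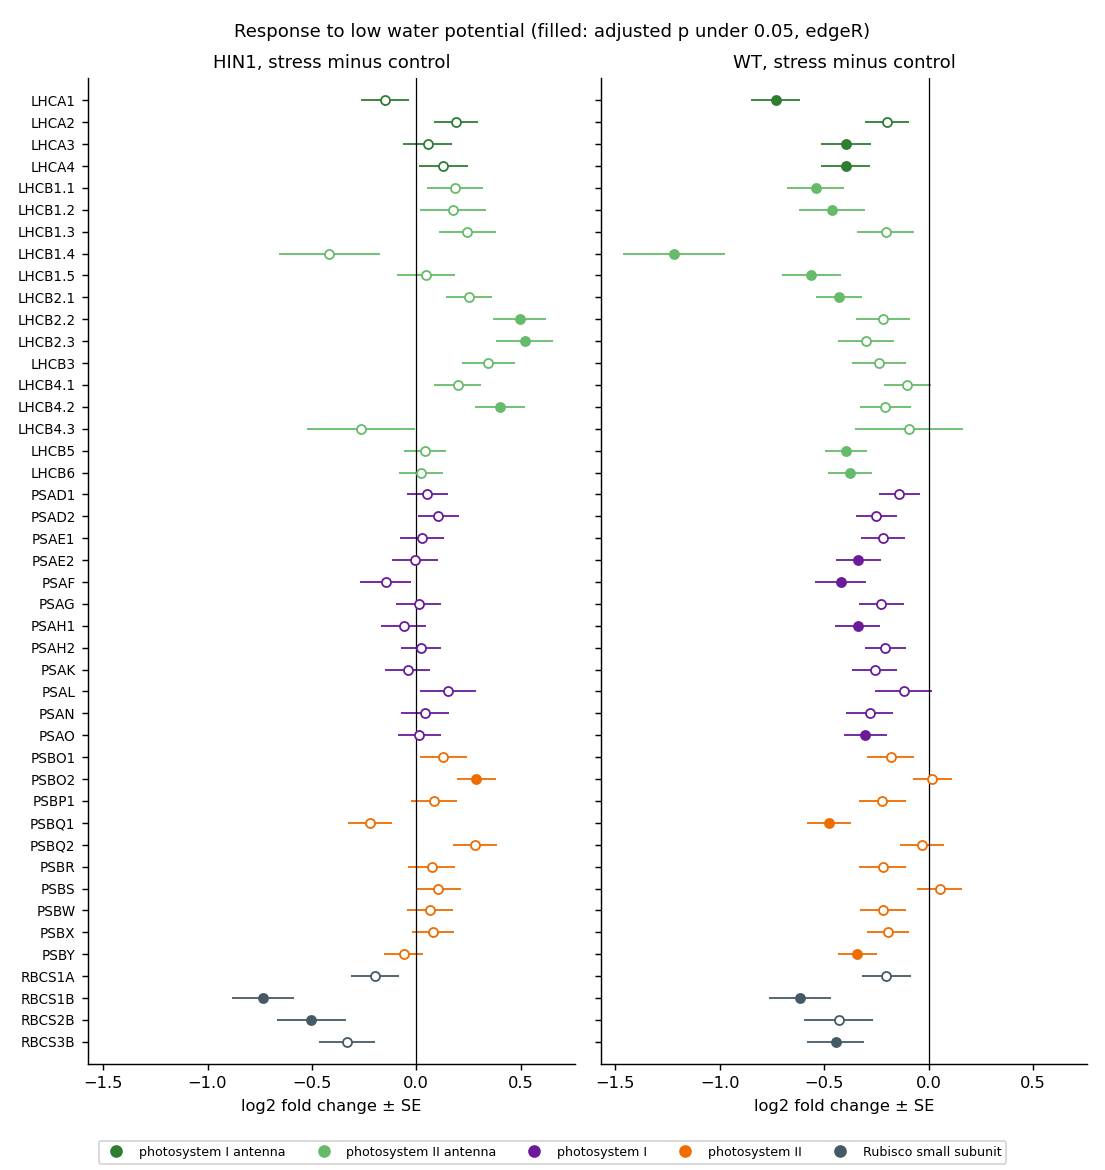
Log2 fold change ± SE of each of the 44 members, stress minus control, in the HIN1 line (left) and in WT (right), with filled points for an adjusted p under 0.05. In WT 18 points are filled, all below 0, and in the HIN1 line 4 are filled above 0 and 2 below.

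The photosystem I antenna is a belt of LHCA1 to LHCA4 on one side of the core, and 3 of the 4 genes fell in WT. LHCA1 (AT3G54890) measured 2356, 2279 and 2119 CPM in HIN1 stress, 2673, 2074 and 2742 CPM in HIN1 control, 1953, 2038 and 1922 CPM in WT stress and 3749.6, 3037 and 3036 CPM in WT control. The WT stress libraries lay below the WT control libraries, and the HIN1 stress libraries overlapped the HIN1 control libraries. LHCA1 fell in WT with log2 fold change -0.73 ± 0.12 (SE), adjusted p = 0.000731, the lowest p of the members. LHCA4 (AT3G47470) was at 3935, 3868 and 3840.1 CPM in HIN1 stress, 3922, 2971 and 3742 CPM in HIN1 control, 3457, 3831 and 3314 CPM in WT stress and 5229.8, 4507 and 4229 CPM in WT control. As for LHCA1, the WT groups were apart and the HIN1 groups overlapped. LHCA4 fell in WT (log2 fold change -0.40 ± 0.12 (SE), adjusted p = 0.0227), as did LHCA3 (log2 fold change -0.40 ± 0.12 (SE), adjusted p = 0.0248). LHCA2 had a log2 fold change of -0.20 and its libraries overlapped.

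LHCB1, LHCB2 and LHCB3 form the trimers of the major photosystem II antenna, LHCII, the most abundant membrane protein of leaves. LHCB1.3 (AT1G29930) had 11223, 10517 and 11092 CPM in HIN1 stress, 9930.3, 7376 and 10409 CPM in HIN1 control, 10475, 10729 and 10351 CPM in WT stress and 14111, 11158 and 11118 CPM in WT control. WT stress lay below WT control by a narrow margin, and HIN1 stress lay above HIN1 control. LHCB1.3 did not pass the test in WT (log2 fold change -0.21 ± 0.14 (SE), adjusted p = 0.28). The other LHCB1 genes all fell in WT: LHCB1.1, LHCB1.2, LHCB1.4 and LHCB1.5. LHCB1.4 (AT2G34430) measured 1205, 979 and 968 CPM in HIN1 stress, 1581, 913 and 1711 CPM in HIN1 control, 911, 953 and 775 CPM in WT stress and 2769, 1500.4 and 1875 CPM in WT control. The WT stress libraries were all below the WT control libraries, in which library 1 stood highest, and the HIN1 groups overlapped. LHCB1.4 had the most negative log2 fold change of the 44 members in WT (log2 fold change -1.22 ± 0.25 (SE), adjusted p = 0.00314). LHCB1.1 (AT1G29920) was at 2589, 2938 and 2465 CPM in HIN1 stress, 2623, 1915 and 2488 CPM in HIN1 control, 2007, 2412 and 2002 CPM in WT stress and 3550.4, 2881 and 2914 CPM in WT control. The 3 WT stress libraries were the lowest of the 12 apart from HIN1 control library 2. LHCB1.1 fell in WT with log2 fold change -0.54 ± 0.14 (SE), adjusted p = 0.0106. LHCB1.2 fell by 0.46 on the log2 scale (adjusted p = 0.0423) and missed the threshold in 9 of the 12 fits with a library left out. LHCB1.5 fell by 0.56 and was called in all 12.

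LHCB2.1 (AT2G05100) had 1671, 1599 and 1523 CPM in HIN1 stress, 1469.8, 1108 and 1446 CPM in HIN1 control, 1299, 1445 and 1263 CPM in WT stress and 1981, 1699 and 1713 CPM in WT control. HIN1 stress lay above both HIN1 control and WT stress, and WT stress lay below WT control. In WT, LHCB2.1 fell with log2 fold change -0.43 ± 0.11 (SE), adjusted p = 0.0129. LHCB2.3 (AT3G27690) measured 713, 614 and 605 CPM in HIN1 stress, 528, 379 and 440.0 CPM in HIN1 control, 530.5, 623 and 497 CPM in WT stress and 774, 662 and 597 CPM in WT control. The WT groups overlapped, while the HIN1 stress libraries were all above the HIN1 control libraries. For LHCB2.3 the WT difference missed the threshold (log2 fold change -0.30 ± 0.14 (SE), adjusted p = 0.113), and LHCB2.2 (-0.22) and LHCB3 (-0.24) were not called either.

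LHCB4, LHCB5 and LHCB6 are the monomeric antenna proteins CP29, CP26 and CP24, which join the trimers to the core. LHCB5 averaged 3175 ± 101 CPM in WT stress and 4172 ± 437 CPM in WT control (SD, n = 3 each), and fell (log2 fold change -0.39 ± 0.10 (SE), adjusted p = 0.0118). LHCB6 averaged 1969 ± 83.9 CPM in WT stress and 2554 ± 286 CPM in WT control, and also fell (log2 fold change -0.38 ± 0.11 (SE), adjusted p = 0.0186). No LHCB4 gene was called: the log2 fold change was -0.10 for LHCB4.1, -0.21 for LHCB4.2 and -0.09 for LHCB4.3.

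**Figure D3:**
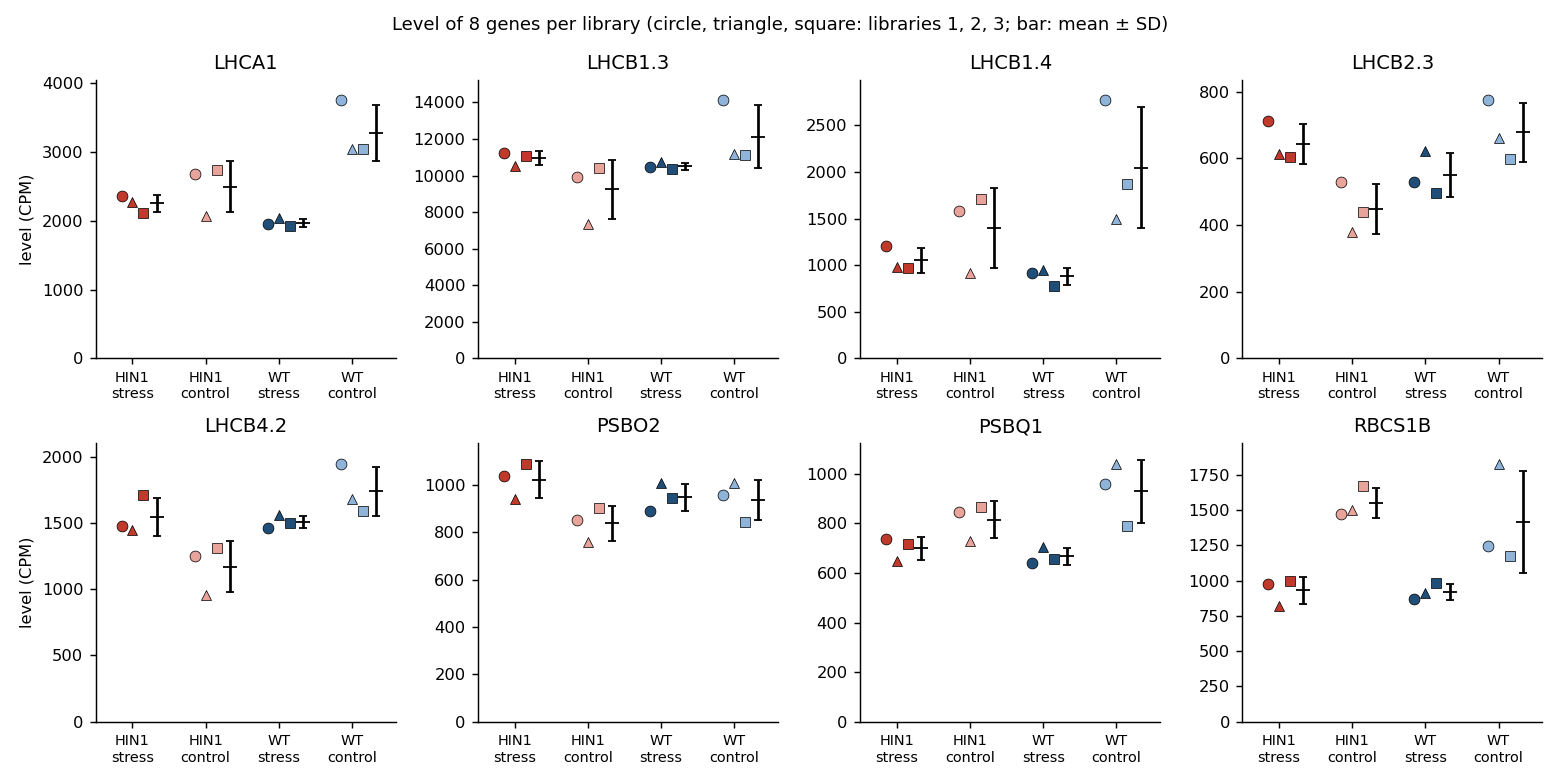
Level (CPM) of 8 members in each library, with HIN1 stress, HIN1 control, WT stress and WT control from left to right and bars for the mean ± SD. LHCA1, LHCB1.4 and PSBQ1 lie lower in WT stress than in WT control, while their HIN1 stress and HIN1 control libraries overlap. In HIN1 stress and WT stress PSBQ1 averages 700 ± 46.7 and 667 ± 34.7 CPM, and LHCB1.4 1051 ± 134 and 879 ± 93.1 CPM. RBCS1B lies lower in stress than in control in both genotypes, and LHCB2.3, LHCB4.2 and PSBO2 lie higher in HIN1 stress than in HIN1 control.

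The 12 photosystem I subunits had log2 fold changes from -0.42 to -0.12 in WT, with 4 called. PSAF, which docks plastocyanin on the lumen side, fell most. PSAF (AT1G31330) was at 1507, 1240.0 and 1344 CPM in HIN1 stress, 1366, 1444 and 1715 CPM in HIN1 control, 1334, 1420.2 and 1380.3 CPM in WT stress and 2077, 1927 and 1532 CPM in WT control. WT stress lay below WT control, while the HIN1 groups overlapped. PSAF fell in WT with log2 fold change -0.42 ± 0.12 (SE), adjusted p = 0.0216. PSAH1, a subunit at the docking side for mobile LHCII, was the other member of lowest p. PSAH1 (AT3G16140) had 560.0, 493 and 604 CPM in HIN1 stress, 568, 499 and 660.2 CPM in HIN1 control, 503, 524 and 542 CPM in WT stress and 695, 695 and 595 CPM in WT control. All 3 WT stress libraries were under the lowest WT control library. PSAH1 fell in WT (log2 fold change -0.34 ± 0.11 (SE), adjusted p = 0.0324), as did PSAE2 on the stromal side (log2 fold change -0.34 ± 0.11 (SE), adjusted p = 0.0346). PSAO lies near the same docking site. PSAO (AT1G08380) measured 1261, 1142 and 1207 CPM in HIN1 stress, 1225, 1023 and 1326 CPM in HIN1 control, 1123, 1198 and 1100.3 CPM in WT stress and 1545, 1422 and 1255 CPM in WT control. The WT groups did not overlap and the HIN1 groups did. PSAO fell in WT with log2 fold change -0.30 ± 0.10 (SE), adjusted p = 0.0428, close to the threshold.

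Subunits not called in WT included the ferredoxin-docking PSAD pair and PSAL, which joins PSAH and PSAO at the docking side. PSAL (AT4G12800) was at 2134, 1998 and 2428 CPM in HIN1 stress, 1876, 1619 and 2402 CPM in HIN1 control, 1960.0, 2122 and 2254 CPM in WT stress and 2424, 2377 and 2084 CPM in WT control. All 4 groups overlapped. The WT log2 fold change of PSAL was -0.12 ± 0.13 (SE). PSAD2 (AT1G03130) had 488, 451 and 519 CPM in HIN1 stress, 454, 403 and 499 CPM in HIN1 control, 462, 516 and 492 CPM in WT stress and 627, 609 and 512 CPM in WT control. WT control library 3 lay within the range of WT stress, so the WT groups overlapped. PSAD2 had log2 fold change -0.25 ± 0.10 (SE), adjusted p = 0.0736 in WT. PSAD1, PSAE1, PSAG, PSAH2, PSAK and PSAN were negative in WT and not called.

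Of the 10 photosystem II subunits, PSBQ1 and PSBY fell in WT. PSBO, PSBP and PSBQ proteins cover the oxygen-evolving cluster on the lumen side. PSBQ1 (AT4G21280) measured 736, 647 and 716 CPM in HIN1 stress, 847, 730.4 and 867 CPM in HIN1 control, 639, 706 and 657 CPM in WT stress and 957, 1041 and 789 CPM in WT control. The WT stress libraries lay below the WT control libraries, and the HIN1 groups overlapped by a little. PSBQ1 fell with log2 fold change -0.48 ± 0.10 (SE), adjusted p = 0.00512. Its paralogue PSBQ2 did not pass the test. PSBQ2 (AT4G05180) was at 1256, 1119 and 1302 CPM in HIN1 stress, 1035, 857 and 1133 CPM in HIN1 control, 1210.1, 1213 and 1215 CPM in WT stress and 1363, 1225 and 1132 CPM in WT control. The WT groups overlapped, and so did the HIN1 groups. PSBQ2 had a WT log2 fold change of -0.03 ± 0.11 (SE).

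PSBY (AT1G67740) had 712, 671 and 742 CPM in HIN1 stress, 749, 662 and 803 CPM in HIN1 control, 637, 687 and 687 CPM in WT stress and 865, 935 and 747 CPM in WT control. PSBY, a small membrane subunit, did not overlap between the WT groups and did between the HIN1 groups. It fell in WT (log2 fold change -0.34 ± 0.09 (SE), adjusted p = 0.0171). PSBR (AT1G79040) measured 2478, 2378 and 2731 CPM in HIN1 stress, 2337, 2094 and 2776 CPM in HIN1 control, 2373, 2525 and 2450.3 CPM in WT stress and 3118, 2926 and 2518 CPM in WT control. The WT groups of PSBR, which helps the extrinsic proteins bind, overlapped. PSBR was not called in WT (log2 fold change -0.22 ± 0.11 (SE), adjusted p = 0.161). The members with a positive log2 fold change in WT were PSBO2 (0.02) and PSBS (0.05), and neither was called. PSBS is the sensor of lumen acidity for the dissipation of excess light as heat.

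All 4 RBCS genes averaged lower in stress than in control in both genotypes, and 2 of them were called in each. RBCS1A (AT1G67090) was at 6991, 6572 and 6816 CPM in HIN1 stress, 7754, 7421 and 8176 CPM in HIN1 control, 6852, 7282 and 7051 CPM in WT stress and 8176, 9487 and 6704 CPM in WT control. HIN1 stress lay below HIN1 control, and the WT groups overlapped through WT control library 3. RBCS1A, the main small subunit gene by level, was not called in the HIN1 line (log2 fold change -0.20 ± 0.12 (SE), adjusted p = 0.236) or in WT (log2 fold change -0.20 ± 0.12 (SE), adjusted p = 0.209). RBCS1B (AT5G38430) had 977, 817 and 996 CPM in HIN1 stress, 1476, 1499.6 and 1669 CPM in HIN1 control, 872, 912 and 984 CPM in WT stress and 1242, 1829 and 1173 CPM in WT control. The stress libraries of each genotype lay below its control libraries. RBCS1B fell in the HIN1 line (log2 fold change -0.73 ± 0.15 (SE), adjusted p = 0.00373) and in WT (log2 fold change -0.62 ± 0.15 (SE), adjusted p = 0.0087). RBCS3B (AT5G38410) measured 4203, 3869 and 4023 CPM in HIN1 stress, 4874, 4997 and 5354 CPM in HIN1 control, 3737, 4317 and 4136 CPM in WT stress and 5512, 6742 and 4342 CPM in WT control. The HIN1 groups did not overlap, and the WT groups were narrowly apart. RBCS3B missed the threshold in the HIN1 line (log2 fold change -0.33 ± 0.13 (SE), adjusted p = 0.0909) and fell in WT (log2 fold change -0.45 ± 0.14 (SE), adjusted p = 0.0264). RBCS2B fell in the HIN1 line (log2 fold change -0.50 ± 0.17 (SE), adjusted p = 0.0432) and missed the threshold in WT (log2 fold change -0.43 ± 0.17 (SE), adjusted p = 0.0691), and no RBCS gene was called in the test of a difference between genotypes given below. Summed RBCS level was 12815 to 14124 CPM in HIN1 stress, 16464 to 17754 CPM in HIN1 control, 13251 to 14505 CPM in WT stress and 14147 to 21448 CPM in WT control. The difference of the means was -20.0% in the HIN1 line and -20.9% in WT, where WT control library 3 lay within the stress range. By summed RPKM the difference was -20.5% in the HIN1 line and -17.3% in WT.

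In the HIN1 line a smaller share of the members than of all genes tested was called. Among the members that rose were 3 antenna genes. In HIN1 stress against HIN1 control 4 members rose and 2 fell, where 27.1% of all genes tested were called, 14.7% higher and 12.5% lower. Those that rose were LHCB2.2, LHCB2.3, LHCB4.2 and PSBO2, and those that fell were RBCS1B and RBCS2B. The median log2 fold change was 0.05 over the 44 members, 0.18 over the antenna genes and 0.01 over all genes tested. Summed antenna level was 51132, 49888 and 50565 CPM in the HIN1 stress libraries and 48453, 36892 and 50944 CPM in the HIN1 control libraries. The groups overlapped, with HIN1 control library 2 far below the others. In 8 members every HIN1 stress library was above every HIN1 control library, and in 4, the RBCS genes, below, where 23.4% and 22.0% of all genes tested did so. The number called was 2 without HIN1 stress library 1, 2 without HIN1 control library 2 and 3 without HIN1 stress library 3. With libraries 1 and 2 of each group only, 1 rose and 1 fell. When each of the 12 libraries was left out in turn, RBCS2B missed the threshold in 9 fits, with an adjusted p of up to 0.142, PSBO2 in 5 (up to 0.145), LHCB4.2 in 3 (up to 0.110) and LHCB2.3 in 2 (up to 0.0598).

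LHCB2.3 rose in the HIN1 line with log2 fold change 0.52 ± 0.14 (SE), adjusted p = 0.0145. LHCB2.2 averaged 1427 ± 77.4 CPM in HIN1 stress and 1012 ± 189 CPM in HIN1 control, and rose (log2 fold change 0.50 ± 0.13 (SE), adjusted p = 0.0142). LHCB4.2 had 1479, 1447 and 1708 CPM in HIN1 stress and 1249.6, 953 and 1308 CPM in HIN1 control, with no overlap, and rose (log2 fold change 0.40 ± 0.12 (SE), adjusted p = 0.0294). PSBO2, the minor PSBO gene, had 1038, 939 and 1089 CPM in HIN1 stress and 851, 757 and 903 CPM in HIN1 control, with no overlap, and rose (log2 fold change 0.29 ± 0.09 (SE), adjusted p = 0.04). Without HIN1 control library 2 the adjusted p was 0.0598 for LHCB2.3, 0.0947 for LHCB4.2 and 0.145 for PSBO2. No photosystem I subunit was called in the HIN1 line, and their log2 fold changes ran from -0.15 to 0.15.

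Between genotypes, the members were mostly lower in HIN1 control than in WT control, yet few passed the test. LHCB2.3 and LHCB4.2 fell, 2 of 44, and 0 rose, where 2.76% of all genes tested were called, 0.576% lower and 2.19% higher. LHCB2.3 had log2 fold change -0.59 ± 0.14 (SE), adjusted p = 0.0399. LHCB4.2 had 1249.6, 953 and 1308 CPM in HIN1 control and 1946, 1682 and 1589 CPM in WT control (log2 fold change -0.57 ± 0.12 (SE), adjusted p = 0.0285). The groups of both genes did not overlap. The log2 fold change was negative in 43 of 44 members, RBCS1B being the exception, and the median was -0.27 against -0.02 over all genes tested. At an unadjusted p under 0.05 there were 28 members, 17 of them antenna genes, and 19.0% of all genes tested. By DESeq2, 14 members were lower, 13 of them antenna genes, against 2.27% of all genes it tested. In the authors' deposited table for this comparison 5 members were lower, 4 of them antenna genes, and 0 were higher. Of all genes with an adjusted p there, 1.44% were lower. Over the 18 antenna genes the median was -0.39, over photosystem I subunits -0.24, over photosystem II subunits -0.23 and over RBCS genes -0.04. In 13 members the HIN1 control libraries all lay below the WT control libraries, as in 11.0% of all genes tested. The count rested on single libraries: it was 0 without WT control library 1, WT control library 2 or HIN1 control library 2, 16 without WT control library 3, and 1 without HIN1 control library 1 or HIN1 control library 3, and also 1 without HIN1 stress library 2, HIN1 stress library 3 or WT stress library 1. With libraries 1 and 2 of each group only, 14 members were lower in HIN1 control.

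**Figure D4:**
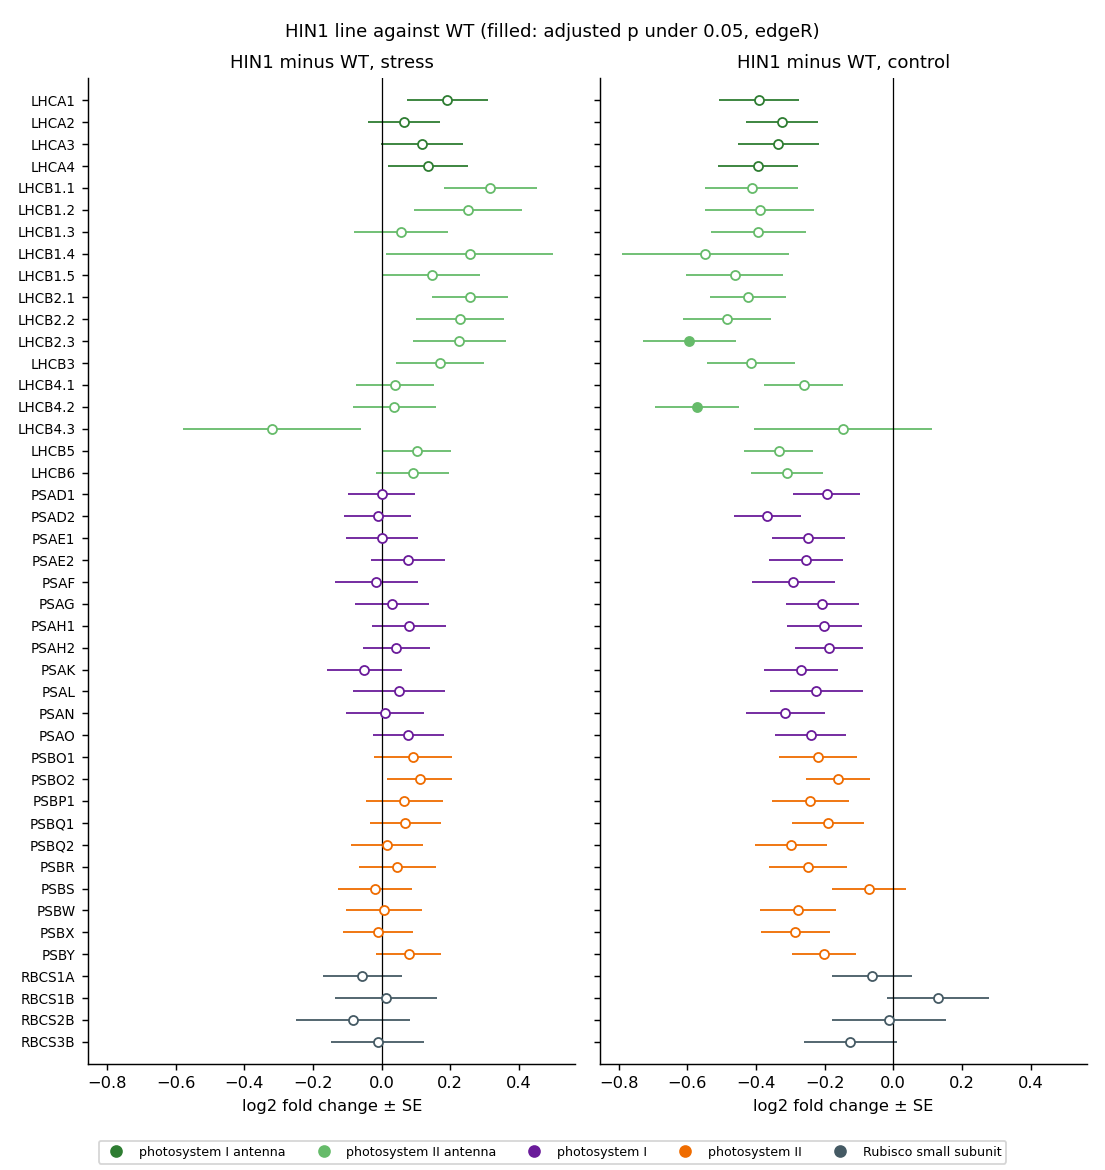
Log2 fold change ± SE of each of the 44 members, HIN1 minus WT, in stress (left) and in control (right), with filled points for an adjusted p under 0.05. In stress 34 points lie above 0 and none is filled, and in control 43 lie below 0 and LHCB2.3 and LHCB4.2 are filled.

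No member was called in HIN1 stress against WT stress by edgeR or by DESeq2, with 2 at an unadjusted p under 0.05 (LHCB1.1 and LHCB2.1). Of all genes tested, edgeR called 3.42%, 3.23% higher and 0.196% lower, DESeq2 called 3.8% higher and 0.398% lower, and 10.6% had an unadjusted p under 0.05. The median log2 fold change was 0.06 over the members and -0.01 over all genes tested. LHCB1.1 had log2 fold change 0.32 ± 0.14 (SE), adjusted p = 0.414, and LHCB2.1 had log2 fold change 0.26 ± 0.11 (SE), adjusted p = 0.418. In 11 members, all antenna genes, the HIN1 stress libraries lay above the WT stress libraries, and in 1, LHCB4.3, below, against 10.1% and 6.67% of all genes tested. Summed antenna level was 49888 to 51132 CPM in HIN1 stress and 44851 to 48015 CPM in WT stress. In the authors' deposited table for this comparison, LHCB1.1 (log2 fold change 0.26), LHCB1.2 (0.23), LHCB2.1 (0.23) and LHCB2.2 (0.21) were higher and LHCB4.3 (-0.28) was lower at an adjusted p under 0.05. Of all genes with an adjusted p in the authors' deposited table, 4.5% were called, 3.94% higher and 0.557% lower.

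Whether the stress response differed between genotypes was tested with the interaction, the response of the HIN1 line less that of WT. No member was called by edgeR, and 0.157% of all genes tested were. At an unadjusted p under 0.05 there were 17 members, 16 of them antenna genes and the other PSAD2, and 9.17% of all genes tested. By DESeq2 6 members, all antenna genes, were called higher, against 0.716% of all genes it tested: LHCA1, LHCB1.1, LHCB2.1, LHCB2.2, LHCB2.3 and LHCB4.2. The difference was positive in 41 of 44 members, with a median of 0.31 over the members, 0.58 over antenna genes, 0.27 over photosystem I subunits, 0.28 over photosystem II subunits, -0.03 over RBCS genes and 0.02 over all genes tested. LHCB2.1 had a difference of 0.68 ± 0.16 (SE) in log2 fold change, adjusted p = 0.211, and LHCB2.3 had a difference of 0.82 ± 0.19 (SE) in log2 fold change, adjusted p = 0.211, the lowest adjusted p of the members. In DESeq2 the adjusted p was 0.00255 for LHCB2.1 and 0.0037 for LHCB2.3. The interaction shares its control libraries with the comparison of HIN1 control and WT control, and its values are no separate evidence.

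Within families, the share of a gene in the reads of its family was a description made after the values were seen, with no test. LHCB1.4 took 4.52 ± 0.56% of LHCB1 reads in HIN1 stress and 6.56 ± 0.85% in HIN1 control, and 4.17 ± 0.39% in WT stress and 7.16 ± 1.2% in WT control. The stress and control libraries did not overlap in WT or in the HIN1 line. LHCB1.3 took 47.1 ± 1.8% in HIN1 stress and 44.1 ± 1% in HIN1 control, and 49.9 ± 1% in WT stress and 43.1 ± 1.1% in WT control. Its libraries overlapped between the HIN1 groups and were apart in WT. PSBQ1 made up 36.4 ± 0.78% of the reads of the PSBQ pair in HIN1 stress and 44.8 ± 1.3% in HIN1 control, and 35.5 ± 1.2% in WT stress and 42.8 ± 2.8% in WT control. RBCS1A had 50.2 ± 0.95% of RBCS reads in HIN1 stress and 46.0 ± 0.85% in HIN1 control, and 50.7 ± 0.89% in WT stress and 46.3 ± 1.8% in WT control. For PSBQ1 and RBCS1A the stress and control libraries were apart in both genotypes.

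**Figure D5:**
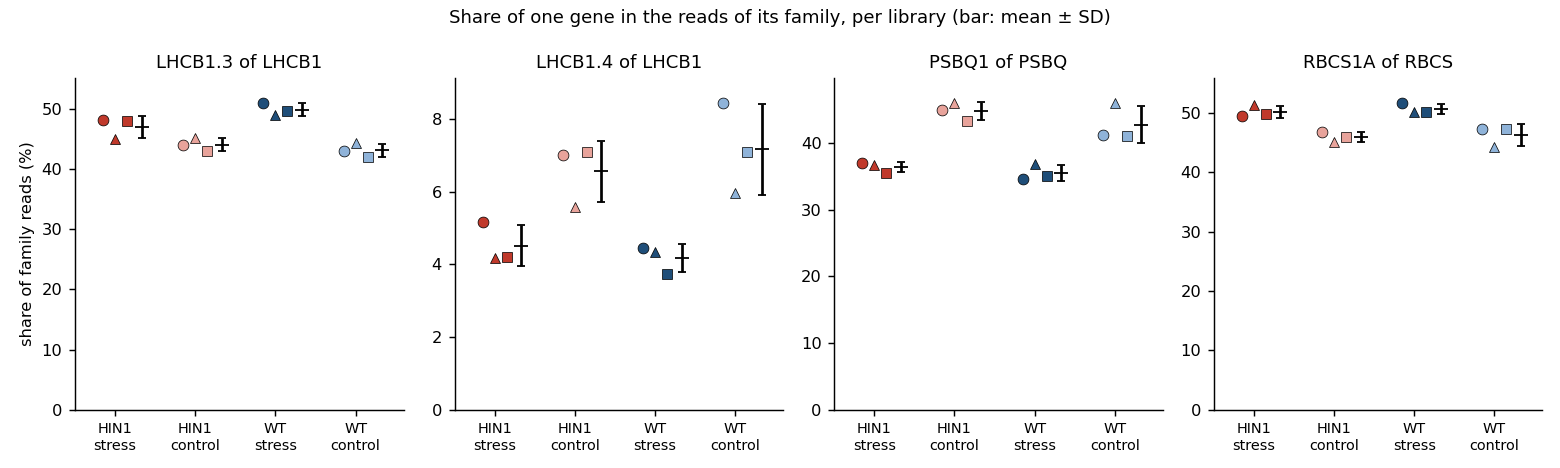
Share (%) of 4 genes in the reads of their family in each library, with HIN1 stress, HIN1 control, WT stress and WT control from left to right and bars for the mean ± SD. LHCB1.4 and PSBQ1 lie lower and RBCS1A higher in the stress libraries of both genotypes, and LHCB1.3 higher in WT stress than in WT control.

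Other genes of the pathway came from 7 lists of 91 genes. Of all genes tested, 16.7% were called lower and 14.9% higher in WT stress against WT control. In WT stress against WT control 6 of 11 genes for electron transfer and ATP synthase fell, among them the ferredoxin gene FD1 (log2 fold change -0.49 ± 0.14 (SE), adjusted p = 0.02) and the ATP synthase genes ATPD (log2 fold change -0.37 ± 0.11 (SE), adjusted p = 0.0238) and ATPG. Chlorophyll synthesis had 9 of 21 lower, among them HEMB1 and HEMC. The lowest adjusted p was that of CHLM, the magnesium protoporphyrin methyltransferase (log2 fold change -0.51 ± 0.10 (SE), adjusted p = 0.00198). Log2 fold changes of the 21 genes ran from -1.90 to 0.27. Of 17 Calvin cycle genes 3 fell: PRK, phosphoribulokinase (log2 fold change -0.48 ± 0.11 (SE), adjusted p = 0.00523), RCA, which activates Rubisco (log2 fold change -0.47 ± 0.15 (SE), adjusted p = 0.0282), and RPI3. Of 8 genes for antenna targeting and phosphorylation 3 fell, LTD, ALB3 and STN7, the last being the kinase of LHCII in state transitions. Of 9 Rubisco assembly genes 1 fell, RAF2 (log2 fold change -0.38 ± 0.10 (SE), adjusted p = 0.013). Of 11 other antenna and photosystem genes 2 rose, the early light-induced ELIP1 (log2 fold change 1.51 ± 0.19 (SE), adjusted p = 0.000119) and PSBP2 (log2 fold change 0.94 ± 0.16 (SE), adjusted p = 0.000903), and 2 fell, among them PSB33.

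Of 14 regulators, 6 fell and 1 rose in WT. GLK2 fell (log2 fold change -0.39 ± 0.05 (SE), adjusted p = 0.000151), as did CGA1, a GATA factor of chloroplast development (log2 fold change -0.95 ± 0.22 (SE), adjusted p = 0.00768), and PIF5. GLK1, the other GLK factor, rose in the HIN1 line (log2 fold change 0.46 ± 0.14 (SE), adjusted p = 0.0298) and in WT (log2 fold change 0.48 ± 0.14 (SE), adjusted p = 0.0214), the WT value being named after it was seen. GLK1 had 169, 121 and 145 CPM in HIN1 stress, 98.9, 98.3 and 119.8 CPM in HIN1 control, 162, 115 and 149 CPM in WT stress and 99.9, 99.6 and 106 CPM in WT control. The stress libraries of both genotypes were above the control libraries. In HIN1 control against WT control GLK2 fell (log2 fold change -0.25 ± 0.05 (SE), adjusted p = 0.0175), the only call by edgeR among the 91 genes. DESeq2 called 4 regulators, 1 chlorophyll synthesis gene and 1 Calvin cycle gene lower there, against 2.27% of all genes it tested.

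In the HIN1 line the pathway lists had few calls under stress, where 14.7% of all genes tested were called higher and 12.5% lower. PSBP2 rose (log2 fold change 1.52 ± 0.16 (SE), adjusted p = 4.76e-05) and ELIP2 fell among the other antenna and photosystem genes, FD1 fell (log2 fold change -0.52 ± 0.14 (SE), adjusted p = 0.0163) among 11 electron transfer genes, and RPI3 fell among 17 Calvin cycle genes. Of 21 chlorophyll synthesis genes PORB, a protochlorophyllide reductase, rose (log2 fold change 0.45 ± 0.15 (SE), adjusted p = 0.0386) and HEMC and HEMB1 fell. Among 14 regulators 2 rose, GLK1 and PIF4, and 2 fell, among them CGA1 (log2 fold change -1.07 ± 0.22 (SE), adjusted p = 0.00458). CPSRP54, a carrier of antenna proteins in the stroma, rose (log2 fold change 0.29 ± 0.08 (SE), adjusted p = 0.0219), and the chaperonin gene CPN60A1 fell (log2 fold change -0.28 ± 0.09 (SE), adjusted p = 0.0325). No gene of the 7 lists was called in HIN1 stress against WT stress or in the interaction by edgeR. Of the 91 genes, 1 and 9 had an unadjusted p under 0.05 there, against 10.6% and 9.17% of all genes tested. In HIN1 stress against WT stress DESeq2 called 1 lower, against 0.398% of all genes it tested. In the interaction DESeq2 called 1 regulator higher, against 0.716%, and 1 of the other antenna and photosystem genes lower. The share of all genes that DESeq2 called lower in the interaction is not given here.

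Some markers of other cell types were also called in stress against control. Among all genes tested, edgeR called 31.6% in WT (16.7% lower, 14.9% higher) and 27.1% in the HIN1 line (12.5% lower, 14.7% higher). In WT stress, WOX5, MYB36 and EXPA7 of 14 root markers rose and PYK10 fell, 4 of 5 epidermis and guard cell markers fell with GC1 at 12.4, 17.7 and 14.5 CPM in WT stress and 61.7, 77.4 and 60.3 CPM in WT control, and 1 of 2 phloem markers fell. In HIN1 stress against HIN1 control 1 root marker rose and 2 fell, 1 epidermis and guard cell marker rose and 4 fell, and 1 phloem marker fell. In HIN1 control against WT control edgeR called 0 markers. An unadjusted p under 0.05 was found for 4 root, 2 epidermis and guard cell and 1 phloem marker, and for 19.0% of all genes tested. DESeq2 called 3 root markers higher there, and none of the other 2 lists. The share of all genes that DESeq2 called higher is not given here, and edgeR called 2.19% higher. Epidermis and guard cell markers summed to 277 to 345 CPM in HIN1 stress, 325 to 355 CPM in HIN1 control, 310.1 to 323 CPM in WT stress and 357 to 412 CPM in WT control. Phloem markers summed to 153 to 161 CPM in HIN1 stress, 180.2 to 195 CPM in HIN1 control, 134 to 155 CPM in WT stress and 195 to 212 CPM in WT control. WT control library 3 had the highest root marker sum, most of it from PYK10, at 4409 CPM, and the lowest member share of the WT control libraries. The part of these cell types in the member results was not tested.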

How the data were processed

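Poly-A RNA of 12 whole-seedling libraries was analysed. The submitters' processing notes name CASAVA, bcl2fastq 1.8.4, Trimmomatic 0.35, Bowtie2 and DESeq2, and as genome build TAIR10, per the labels. The sources used here do not state which tool counted the reads, with which annotation and whether by strand. The authors deposited reads per gene (expected counts, some with fractions), together with RPKM and the fraction of reads at several sites, per the file headers. The deposited comparison tables of the authors hold a log2 fold change, its standard error, a p-value and a test score per gene, per the file headers.

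The deposited counts were rounded and fitted in R 4.3.3 with edgeR 4.0.16 (filterByExpr with a minimum count of 10, TMM scaling, 1 quasi-likelihood fit with a coefficient for each of the 4 groups). Tests were two-sided with Benjamini-Hochberg adjustment over the 22924 genes tested, and a gene was called at an adjusted p under 0.05. Every adjusted p is from this fit unless another tool is named. CPM are counts scaled to a common TMM-adjusted library total, values after ± are the SD over n = 3 libraries unless marked SE, and SE is approximate, the size of the log2 fold change over the root of its quasi-likelihood F. DESeq2 1.42.0, other scalings and filters, removal of reads at several sites, a replicate block and each library left out in turn were tried as alternatives. The scripts were tested on simulated data.

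The RefSeq annotation of TAIR10.1 gave positions and upstream windows. The members, gene lists and tests were chosen with earlier results of these data known. All members could be named, in order of role. Library values are given for the member of highest RPKM in each role class and the 2 of lowest p in WT stress against control and in the interaction, and up to 3 called genes of lowest p with a mean of at least 5 CPM are named per list. Deposited depth was 58.0 to 68.56 M gene reads per library. The p-values reflect variation between the experiments on a single line of each genotype.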

Additional observations from a re-analysis of the deposited data

How the results depend on the processing

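The members called kept their direction in all 21 alternatives and no value turned its sign with a call. In WT stress against WT control, 15 to 21 members were called lower under the alternatives that kept every library or dropped library 3 of each group, with DESeq2 giving 21. Leaving out 1 library at a time gave 7 to 26 in that comparison, 2 to 7 in HIN1 stress against HIN1 control, 0 to 16 in HIN1 control against WT control, and 0 in both HIN1 stress against WT stress and the interaction. In HIN1 stress against HIN1 control 6 members were called, and 2 with libraries 1 and 2 only. In HIN1 control against WT control 2 members were called, against 1 with total counts as library sizes, 14 with libraries 1 and 2 only, 0 when only the groups compared entered the fit, and 14 by DESeq2. In the interaction DESeq2 called 6 members and edgeR 0. The causes were not tested. Scaling on the other genes, chosen after seeing the data, left these counts the same.

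No label ties a library number to an experiment shared between groups, and same-numbered libraries were not treated as pairs: over 18 such pairs the correlation of deviations from the group means was -0.11 to 0.195, and 5 were over 0.1. The number 3 libraries nevertheless shared a higher share of chloroplast-gene reads, so a shared origin of same-numbered libraries cannot be told from these data. With the replicate block, 16 members were called in WT stress against WT control, 4 in HIN1 stress against HIN1 control, 2 in HIN1 control against WT control, and 0 in the other 2 tests. At these depths counting error is small beside the spread between libraries.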
